A study of Mus musculus with 6 samples.

Results

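The proteasome genes of mouse B cells were taken as the protein-coding genes whose GENCODE vM21 symbol (GRCm38, mm10) consists of *Psm*, a letter from a to g and a number. The rule found 50 of the 46983 genes listed, of which 21560 are protein-coding, and 48 of the 50 were expressed highly enough to be tested. The values are fragment counts scaled to gene length and library depth (FPKM) from bulk RNA-seq of splenic B cells, with 3 WT and 3 *Hif1a* KO libraries, and the comparison asks whether loss of HIF-1α went with a different supply of proteasome transcripts during IgA class switching. All cells were of C57BL/6 background and were kept until day 3 with TGF-β, IL-5 and BAFF (10 ng/ml of each) and LPS (5 μg/ml). In the *Hif1a* KO mice, 2 floxed *Hif1a* alleles were combined with cre driven by *Mb1* (*Cd79a*), which is active throughout the B lineage. WT mice were littermates, either *Hif1a* f/+ with cre or *Hif1a* f/f without it, and the labels do not say which kind of mouse gave which library. They also do not say whether the libraries of a group came from separate mice, so the *p* values measure the spread between these samples, part of which may be technical. The Y-linked gene *Ddx3y* was at 43.3 FPKM in KO replicate 2 and at no more than 0.00945 FPKM in the other 5 libraries, so KO replicate 2 held cells of a male mouse and the rest did not, and sex varies within the KO group.

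The proteasome is the protease that degrades ubiquitin-tagged proteins in the cytosol and nucleus. Its core is a stack of alpha and beta rings, and a regulatory particle made of a base and a lid binds the tagged protein, unfolds it with a ring of ATPases and feeds it into the core. In lymphocytes and in cells exposed to interferon, the catalytic beta subunits *Psmb5*, *Psmb6* and *Psmb7* are partly replaced by *Psmb8*, *Psmb9* and *Psmb10*, which gives the immunoproteasome, known for making peptides suited to MHC class I molecules. Differentiating plasma cells, which secrete large amounts of antibody, place a high load on this machinery.

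Library depth, recovered from the FPKM values, was 25.0 to 37.2 M reads. WT replicate 1 stood apart from the other WT libraries: on the first principal component of all genes tested, which held 54.7% of the variance, it lay at 15.7, among the KO libraries (7.1 to 19.5) and far from WT replicates 2 and 3 (-26.2 and -25.9). KO replicate 2 stood apart on the second component (16.7% of the variance), at 22.6 against at most -1.5 in the others. *Hif1a* itself was at 36.5, 49.8 and 45.8 FPKM in WT and 46.5, 45.6 and 52.8 FPKM in KO cells (log2 fold change 0.14 ± 0.12 SE, limma with Benjamini-Hochberg adjusted *p* = 0.701), and a count over the whole gene cannot check the removal of a part of it. All 8 B-cell markers were expressed, with a summed level of 2990 to 3840 FPKM in WT and 2990 to 4070 FPKM in KO libraries. The 12 macrophage markers summed to 74.4, 171 and 120 FPKM in WT replicates 1 to 3 against 67.7 to 79.5 FPKM in KO libraries, 7 of them averaged under 0.5 FPKM, and 4 were lower in every KO library than in every WT library. The 6 neutrophil markers summed to 33.1 FPKM in WT replicate 1 and to at most 0.528 FPKM elsewhere, and the 8 T-cell markers, of which *Lck* made up nearly everything, to 91.4 to 133 FPKM in WT and 135 to 139 FPKM in KO libraries. The 6 erythroid markers were high in WT replicates 2 and 3 alone, with sums of 3.05, 16.2 and 13.5 FPKM in WT and 2.91 to 4.72 FPKM in KO libraries. The 7 dendritic cell markers summed to 94.3, 118 and 116 FPKM in WT and 75.8 to 102 FPKM in KO libraries. *Ccr7* made up most of each sum (77.5, 102.3 and 98.1 FPKM in WT, 76.0, 63.7 and 89.6 FPKM in KO libraries), and 2 markers averaged under 0.5 FPKM. The 7 plasma cell markers summed to 1410, 939 and 893 FPKM in WT and 1350, 999 and 1730 FPKM in KO libraries, lowest in WT replicates 2 and 3. Without WT replicate 1, the plasma cell genes *Jchain* and *Prdm1* were called higher in KO cells (limma, adjusted *p* = 0.0255 and 0.0369). That comparison called 9.4% of all genes in either direction. *Xbp1*, *Mzb1* and *Irf4* were also higher but not called (limma, adjusted *p* = 0.15, 0.279 and 0.365). *Sdc1* was at a log2 fold change of -0.02 (limma, adjusted *p* = 0.938), and *Tnfrsf17* averaged under 0.5 FPKM and was not tested. The part of these other cells in the results that follow was not tested, and in bulk RNA fewer cells of a type and less RNA per cell cannot be told apart.

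Most proteasome transcripts averaged slightly lower in the *Hif1a* KO than in the WT libraries, and no member passed the test. The difference rested on WT replicates 2 and 3. In WT replicate 1 the summed level of the 50 genes, 5314 FPKM, lay within the KO range of 5296 to 5413 FPKM. Of the 48 members tested, 42 were lower and 6 higher in KO cells (87.5% lower, against 57.9% of all 13312 genes tested), and under median-ratio scaling, which sets the median gene equal between libraries, the split was 34 lower and 14 higher (70.8% lower, against 49.4% of all genes). Under quantile normalization it was 41 lower and 7 higher (85.4% lower, against 50% of all genes). The median log2 fold change was -0.10 over the members and -0.03 over all genes, and -0.06 and 0.00 under median-ratio scaling. Single members ranged from -0.25 for *Psmc3ip* to 0.18 for *Psmd10*, a chaperone of base assembly. The differences were small, since 47 of the 48 lay within 0.25 of 0 on the log2 scale, as did 83.6% of all genes.

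By limma on log2(FPKM + 1), 0 of the 48 members were called at a Benjamini-Hochberg adjusted *p* under 0.05, as were 0.0% of all genes tested. Adjusted *p* values of the members ran from 0.626 to 0.984. Among the members, only the ubiquitin receptor *Psmd4* (1 of 48) had an unadjusted limma *p* under 0.05, against 6.98% of all genes. Standard errors were 0.05 to 0.12, and the 95% intervals of all 48 members lay between -0.54 and 0.44. The 3 members with every KO library below every WT library were *Psmg1*, *Psmf1* and *Psmd3*, against 6.03% of all genes (10.1% in either direction), and 0 members had every KO library above every WT library, against 4.06% of all genes. Counting error was largest for *Psmg3*, whose fewest reads in a library were 158, an error of 7.96%.

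Within WT, 1 library stood apart for most members. WT replicate 1 was the lowest WT library for 42 of the 48 members (51.6% of all genes) and lay inside the range of the KO libraries for 37 of them (64.2% of all genes). It was the highest WT library for 3 members, *Psmb8*, *Psmc1* and *Psmd10* (33.3% of all genes). The summed level of the 50 genes was 5314, 5921 and 5828 FPKM in WT replicates 1 to 3 and 5296, 5365 and 5413 FPKM in KO replicates 1 to 3. WT replicates 2 and 3 were the high ones, and the other 4 libraries were close together. The median coefficient of variation of a member was 6.89% within WT and 3.39% within KO cells.

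**Figure D1:**
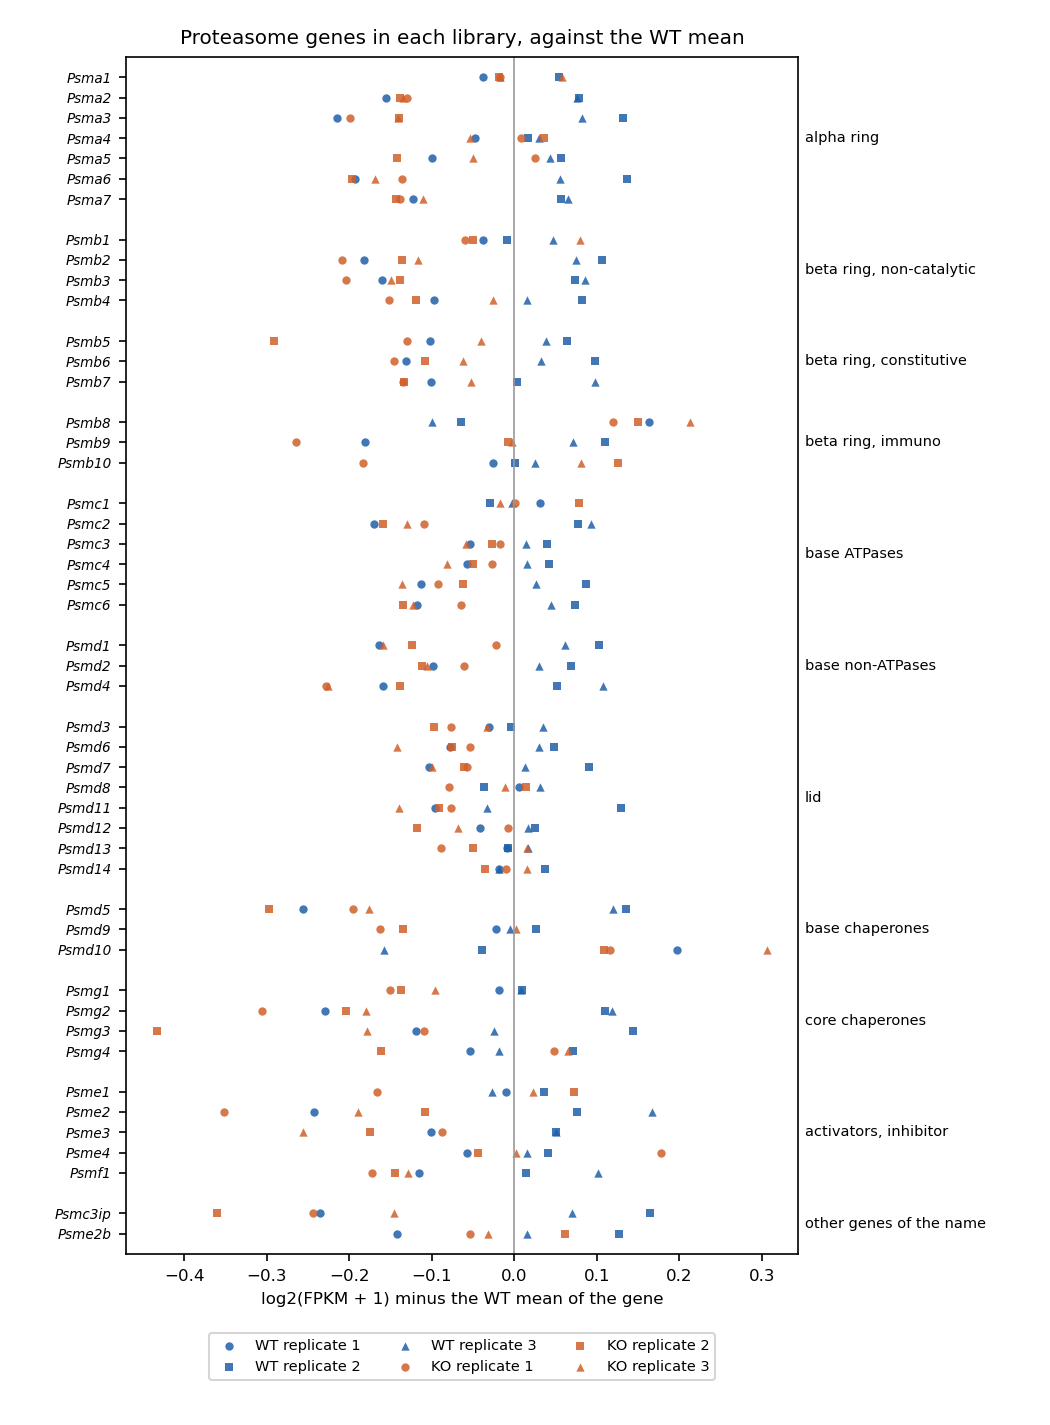
Level of each tested proteasome gene in each library, as log2(FPKM + 1) minus the mean of the 3 WT libraries of that gene, with WT in blue, *Hif1a* KO in orange and the marker shape giving the replicate number. WT replicate 1 (blue circles) sat left of both other WT libraries in 42 of 48 genes, mostly among the KO points.

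Without WT replicate 1, the comparison of the 2 remaining WT libraries with the 3 KO libraries called 7 members, all lower in KO cells, with limma and the same adjustment over all 13312 genes. They were *Psmd5*, *Psmg2*, *Psma3*, *Psmd4*, *Psmb3*, *Psma6* and *Psmb2*, with log2 fold changes from -0.35 to -0.24 and adjusted *p* values from 0.0288 to 0.0490. The same comparison called 5.75% of all genes as lower and 9.4% in either direction. With these 5 libraries, 44 of the 48 members were lower in KO cells, the median was -0.15 (-0.05 over all genes), where leaving out WT replicate 2 instead gave -0.06 (-0.02 over all genes), and 35 members had groups that did not overlap, against 50.5% of all genes. Leaving out any other library called 0 members.

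**Figure D2:**
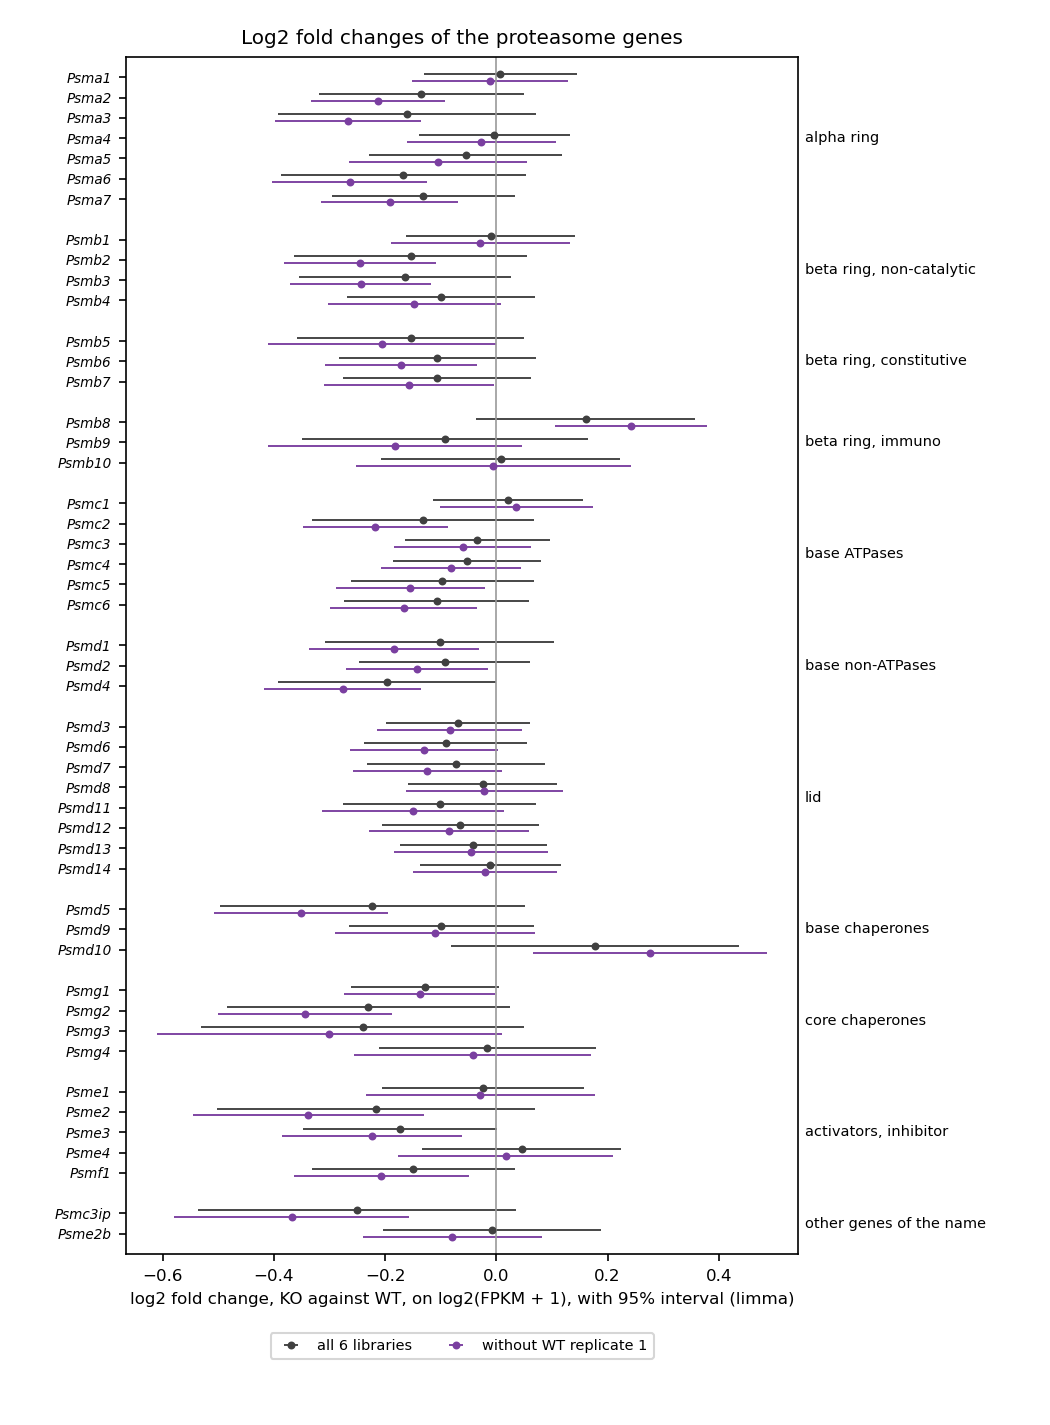
Log2 fold change of each tested proteasome gene, KO against WT, on the log2(FPKM + 1) scale with its 95% interval from limma, for all 6 libraries (grey) and without WT replicate 1 (purple). With 6 libraries 47 of 48 estimates lay within 0.25 of 0, and without WT replicate 1 most moved further to the left while *Psmb8* and *Psmd10* moved to the right.

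The members differed far more in level than between genotypes. FPKM spanned 72.3-fold among tested members, from *Psmb4*, a beta ring subunit, at a mean of 340.8 FPKM to *Psmg3*, a chaperone of core assembly, at 4.71 FPKM. *Psma6*, an alpha ring subunit, was close behind *Psmb4* at 319.9 FPKM. FPKM divides by a gene length, and the length behind the deposited values was within 1 base of the mean length of the annotated transcripts for 30 of the 50 genes and under 0.5 of the longest transcript for 13. With the longest transcript as length, *Psma6* ranked first at 250.5 FPKM, so the order of neighbouring genes depends on the length taken.

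None of the 6 catalytic subunits passed the test, and their differences between genotypes were within the spread between libraries. All 3 constitutive subunits were lower, with either scaling, at a median log2 fold change of -0.11, and of the 3 immunoproteasome subunits 1 was lower, with either scaling, at a median of 0.01. That subunit, *Psmb9*, had a log2 fold change close to those of *Psmb6* and *Psmb7*, and no test compared the classes. Summed over the 3 subunits, the constitutive level was 217, 248 and 244 FPKM in WT and 214, 212 and 227 FPKM in KO libraries. The summed immunoproteasome level was 287, 305 and 299.5 FPKM in WT and 271, 310 and 313 FPKM in KO libraries. WT replicate 1 was the lowest WT library in both sums, and the groups overlapped in each.

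*Psmb8* carries the chymotrypsin-like activity of the immunoproteasome and takes the place of *Psmb5*. On chr17:34197721-34201454 (plus strand), inside the MHC region, it was at 95.7, 81.6 and 79.6 FPKM in WT and 92.8, 94.8 and 99.1 FPKM in KO libraries. WT replicate 1 lay among the KO libraries and the other WT libraries below all of them, and the log2 fold change was 0.16 ± 0.08 SE (limma, adjusted *p* = 0.626). Without WT replicate 1 it was 0.24 ± 0.06 SE, and its limma adjusted *p* of 0.0504 was just above the threshold. *Psmb5*, on chr14:54614119-54618022 (minus strand), was at 50.8, 57.2 and 56.1 FPKM in WT and 49.9, 44.5 and 53.1 FPKM in KO libraries. KO replicate 2 was the lowest library and KO replicate 3 lay above WT replicate 1, and the log2 fold change was -0.15 ± 0.09 SE (limma, adjusted *p* = 0.626).

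*Psmb9* and *Psmb6* occupy the site with caspase-like activity in the constitutive core. *Psmb9*, on chr17:34181987-34187764 (minus strand), was at 139.9, 171 and 167 FPKM in WT and 132, 158 and 158 FPKM in KO libraries. Replicate 1 was the lowest of both groups, and the log2 fold change was -0.09 ± 0.11 SE (limma, adjusted *p* = 0.768). *Psmb6*, on chr11:70525367-70527858 (plus strand), was at 124, 146 and 139.5 FPKM in WT and 123, 126 and 130.5 FPKM in KO libraries. WT replicates 2 and 3 were above all KO libraries and WT replicate 1 lay among them, with a log2 fold change of -0.11 ± 0.08 SE (limma, adjusted *p* = 0.658).

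*Psmb10* and *Psmb7* provide the trypsin-like activity. *Psmb10*, on chr8:105935735-105938444 (minus strand), was at 51.3, 52.3 and 53.2 FPKM in WT and 45.9, 57.1 and 55.3 FPKM in KO libraries. The KO libraries enclosed the WT libraries on both sides, so the log2 fold change of 0.01 ± 0.09 SE (limma, adjusted *p* = 0.979) had no stable sign. *Psmb7*, on chr2:38588036-38644087 (minus strand), was at 41.7, 44.8 and 48.0 FPKM in WT and 40.7, 40.7 and 43.1 FPKM in KO libraries. WT replicate 1 again lay within the KO range, and the log2 fold change was -0.11 ± 0.07 SE (limma, adjusted *p* = 0.653).

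**Figure D3:**
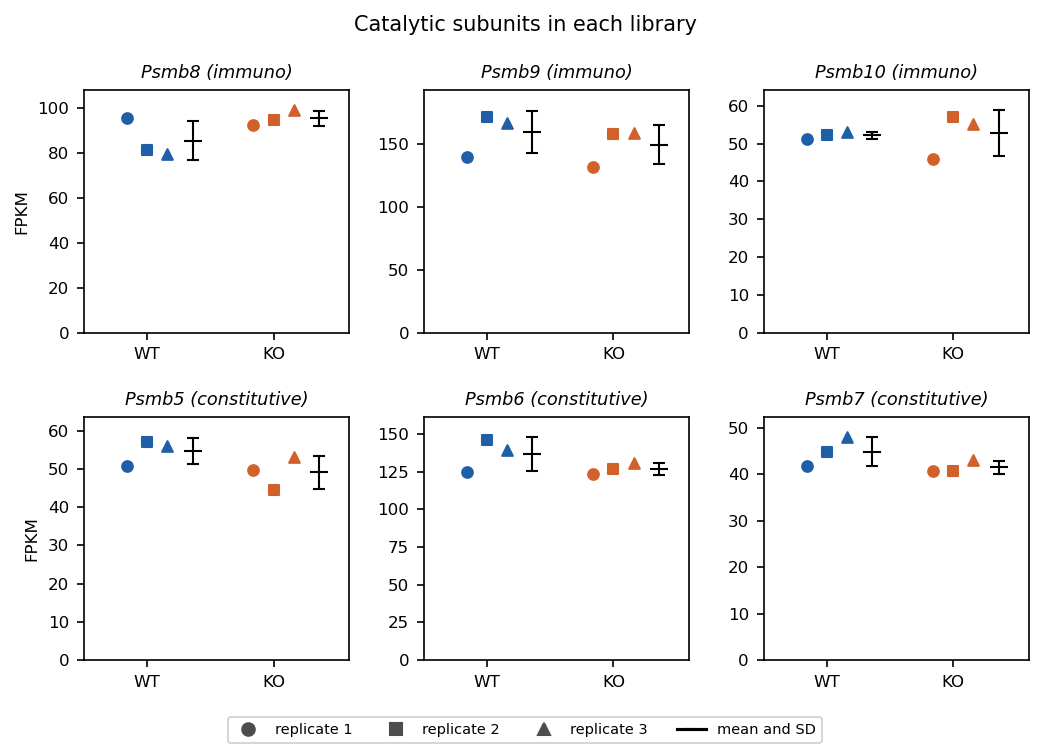
FPKM of the 3 immunoproteasome subunits (top) and of the constitutive subunits they replace (bottom) in each library, with WT in blue, *Hif1a* KO in orange, marker shapes for replicate numbers and bars for mean and SD. Only *Psmb8* had WT replicates 2 and 3 below every KO library, and in all 6 genes WT replicate 1 lay within the KO range.

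A ratio within a library is free of the scaling between libraries, and the 3 pairs were compared on that scale. The ratio of *Psmb8* to *Psmb5* was 1.88, 1.43 and 1.42 in WT and 1.86, 2.13 and 1.86 in KO libraries. WT replicate 1 lay inside the KO range, and the mean log2 ratio was 0.96 ± 0.11 in KO and 0.64 ± 0.23 in WT cells (SD over 3 libraries each), a difference of 0.32 (exact permutation test, two-sided, *p* = 0.3, adjusted over the 3 pairs 0.45). The ratio of *Psmb9* to *Psmb6* was 1.12, 1.17 and 1.19 in WT and 1.07, 1.25 and 1.21 in KO libraries, with a log2 difference of 0.01 (exact permutation test, *p* = 0.9, adjusted 0.9). The ratio of *Psmb10* to *Psmb7* was 1.23, 1.17 and 1.11 in WT and 1.13, 1.40 and 1.28 in KO libraries, with a log2 difference of 0.12 (exact permutation test, *p* = 0.3, adjusted 0.45). Groups overlapped in all 3 pairs, and 3 against 3 libraries cannot give a *p* below 0.1 in this test. Without WT replicate 1 the log2 difference was 0.45 for *Psmb8* to *Psmb5*, and that of *Psmb9* to *Psmb6* turned to -0.01. For *Psmb10* to *Psmb7* the difference was 0.04 without KO replicate 2 and 0.20 without KO replicate 1.

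**Figure D4:**
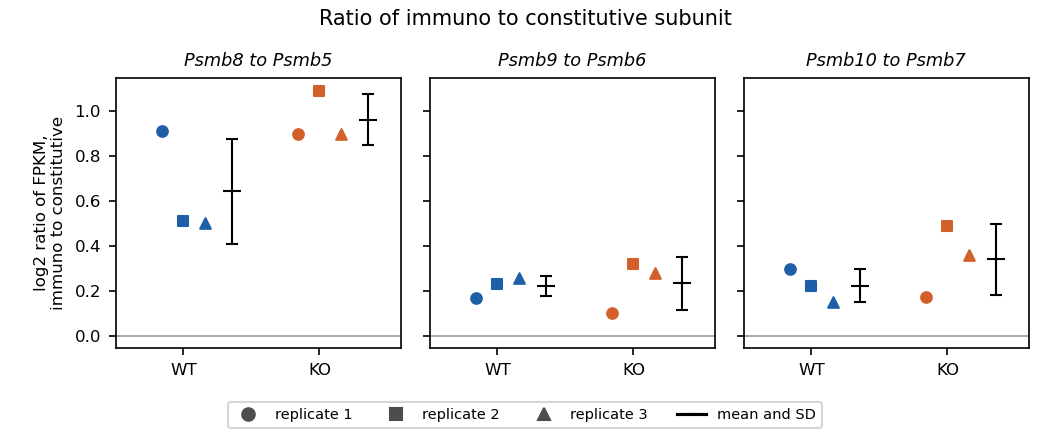
Log2 ratio of the FPKM of an immunoproteasome subunit to that of the constitutive subunit it replaces, per library, with WT in blue, *Hif1a* KO in orange, marker shapes for replicate numbers and bars for mean and SD, and 0 marking equal FPKM. The *Psmb8* to *Psmb5* ratio was 1.43 and 1.42 in WT replicates 2 and 3 and at least 1.86 in the other 4 libraries.

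Both kinds of core were well represented at the transcript level. *Psmb8* made up 60.9% ± 3.81 of the FPKM of its pair in WT and 66.1% ± 1.73 in KO cells (SD, n = 3 each). For *Psmb9* the share was 53.8% ± 0.773 and 54.0% ± 2.04, and for *Psmb10* it was 53.9% ± 1.29 and 55.9% ± 2.70, in the same order. The level of such a share rests on the gene lengths. With the longest transcript as length, a choice made after the data were seen, the WT shares were 55.0% for *Psmb8*, 35.7% for *Psmb9* and 61.6% for *Psmb10*, while the differences between genotypes stayed at 5.41, 0.240 and 1.88 percentage points, against 5.15, 0.243 and 2.00 on the deposited scale. *Psmb8* overlaps the annotated gene *Gm20496*, and *Psmb9* overlaps *Tap1*, whose start lies 211 bases from its own on the opposite strand. Whether the counting used strand is not given in the sources used here, so reads of these overlaps are uncertain.

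The *Psmb5* and *Psmb6* promoters are shown because they are the catalytic subunit genes whose windows hold a letter match to the antioxidant response element. That motif is bound by Nrf1 (*Nfe2l1*), a factor known to raise proteasome transcription when proteasome activity is short. Such a match was about as frequent in member windows (11.1%) as in all windows (10.2%). The bases come from the RefSeq promoter table on GRCm38.p6, read 5′ to 3′ on the strand of the gene and without annotated exon, and the capitals mark the match to TGACNNNGC. Other sites, such as those of AP-1 and CREB, also open with TGAC. The *Psmb5* window lies at chr14:54618023-54618245 (minus strand) and its match begins 47 bases before the RefSeq start. The *Psmb6* window lies at chr11:70525107-70525356 (plus strand) and its match begins 9 bases before the RefSeq start.
Psmb5: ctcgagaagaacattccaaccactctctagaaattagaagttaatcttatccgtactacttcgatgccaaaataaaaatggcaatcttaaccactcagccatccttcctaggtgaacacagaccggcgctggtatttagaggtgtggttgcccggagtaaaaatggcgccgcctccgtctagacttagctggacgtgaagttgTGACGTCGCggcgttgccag
Psmb6: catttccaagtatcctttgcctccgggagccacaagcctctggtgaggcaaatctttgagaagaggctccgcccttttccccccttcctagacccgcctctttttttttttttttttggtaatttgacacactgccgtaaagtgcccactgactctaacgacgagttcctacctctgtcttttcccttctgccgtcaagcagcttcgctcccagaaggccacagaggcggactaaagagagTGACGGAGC

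RefSeq promoter windows were found for 42 of the 50 members, 45 windows in all, and the 250 bases before each start were searched on both strands. TGACNNNGC occurred in 5 member windows, those of *Psmb5*, *Psmb6*, *Psmc6*, *Psmd12* and *Psmd9*, which is 11.1% of them against 10.2% of all 32851 windows. The interferon-stimulated response element, searched as 2 GAAA repeats with any 2 bases between them, occurred in 3 windows, those of *Psmb3*, *Psmd4* and *Psmd9* (6.67% against 2.98% of all windows). The core of the hypoxia response element, ACGTG or GCGTG, occurred in 24 windows of 23 members (53.3% against 38.6% of all windows), among them *Psmb5*, *Psmb8*, *Psmb9* and *Psmb10*. A match of letters is a description of the window and does not show binding.

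The alpha ring, which gates entry to the core, was lower in KO cells for 6 of 7 subunits, or 5 of 7 under median-ratio scaling or without immunoglobulin genes, with a median log2 fold change of -0.13. *Psma6*, the most abundant of them, was at 295, 371 and 351 FPKM in WT and 307, 294 and 300.3 FPKM in KO libraries. *Psma3*, the least abundant, was at 87.2, 111 and 107 FPKM in WT and 88.2, 91.9 and 91.8 FPKM in KO libraries. In both genes WT replicates 2 and 3 were above every KO library and WT replicate 1 was in or below the KO range. Log2 fold changes were -0.17 ± 0.09 SE for *Psma6* and -0.16 ± 0.10 SE for *Psma3* with all libraries. Without WT replicate 1 they were -0.26 and -0.27, both called by limma (adjusted *p* = 0.0438 and 0.0368).

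The non-catalytic beta subunits *Psmb1* to *Psmb4* complete the beta ring. All 4 were lower in KO cells, or 3 of 4 under median-ratio scaling, with a median of -0.13. *Psmb4* was at 329, 373 and 356 FPKM in WT and 317, 324 and 346 FPKM in KO libraries, and its groups overlapped (log2 fold change -0.10 ± 0.07 SE). *Psmb3* was at 123, 145 and 146 FPKM in WT and 119, 125 and 124 FPKM in KO libraries (log2 fold change -0.16 ± 0.08 SE). Its WT replicates 2 and 3 were above all KO libraries, and without WT replicate 1 the log2 fold change was -0.24 (limma, adjusted *p* = 0.0424).

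In the base of the regulatory particle, 5 of the 6 ATPases *Psmc1* to *Psmc6* were lower in KO cells, or 4 of 6 under median-ratio scaling, at a median of -0.08. *Psmc3*, the most abundant ATPase, was at 162, 173 and 170.0 FPKM in WT and 166, 165 and 162 FPKM in KO libraries, nearly equal in all 6 (log2 fold change -0.03 ± 0.06 SE, and 0.00 under median-ratio scaling). *Psmc2*, the least abundant, was at 41.6, 49.6 and 50.1 FPKM in WT and 43.5, 41.9 and 42.8 FPKM in KO libraries (log2 fold change -0.13 ± 0.08 SE). Here too WT replicate 1 was the WT library beside the KO group, and it lay below all 3 of them.

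The base subunits without ATPase activity hold ubiquitin receptors, and all 3 were lower in KO cells with either scaling, at a median of -0.10. The receptor *Psmd4* was at 91.7, 106 and 110.4 FPKM in WT and 87.3, 93.0 and 87.4 FPKM in KO libraries. Its log2 fold change of -0.20 ± 0.08 SE was among the larger ones, WT replicate 1 lay inside the KO range, and without that library the value was -0.28 (limma, adjusted *p* = 0.0405). *Psmd2*, the most abundant of the group, a scaffold that docks ubiquitin shuttles, was at 189, 212 and 207 FPKM in WT and 194, 187 and 188 FPKM in KO libraries (log2 fold change -0.09 ± 0.07 SE).

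The lid, which removes ubiquitin chains, differed little between the genotypes. All 8 subunits were lower in KO cells, or 6 of 8 under median-ratio scaling, and the median of -0.07 shrank to -0.03 under that scaling. *Psmd14*, the deubiquitinase of the lid, was at 166, 173 and 166 FPKM in WT and 167, 164 and 170.1 FPKM in KO libraries, with no separation of any kind (log2 fold change -0.01 ± 0.05 SE, and 0.02 under median-ratio scaling). *Psmd12*, the least abundant lid subunit, was at 48.7, 51.0 and 50.7 FPKM in WT and 49.8, 46.1 and 47.7 FPKM in KO libraries (log2 fold change -0.07 ± 0.06 SE). *Psmd3* was at 72.0, 73.3 and 75.4 FPKM in WT and 69.7, 68.7 and 71.9 FPKM in KO libraries. Its groups did not overlap, but by a margin of 71.96 against 71.87 FPKM, and the log2 fold change was -0.07 ± 0.06 SE (limma, adjusted *p* = 0.678).

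Among the functional classes, the assembly chaperones held the largest log2 fold changes in both directions, -0.24 for *Psmg3* and 0.18 for *Psmd10*. Of the 4 chaperones of the core, *Psmg1* to *Psmg4*, all were lower in KO cells, or 3 of 4 under median-ratio scaling, with a median of -0.18. *Psmg1* was at 32.8, 33.5 and 33.5 FPKM in WT and 29.9, 30.1 and 31.1 FPKM in KO libraries. It had all KO libraries below all WT libraries, WT replicate 1 included, with a log2 fold change of -0.13 ± 0.06 SE (limma, adjusted *p* = 0.626). Its partner *Psmg2* was at 27.8, 35.5 and 35.7 FPKM in WT and 26.3, 28.3 and 28.8 FPKM in KO libraries. Only WT replicate 1 overlapped the KO range, the log2 fold change was -0.23 ± 0.11 SE, and without that library it was -0.34 (limma, adjusted *p* = 0.0303). *Psmg3* was the least abundant member tested, at 4.68, 5.81 and 5.06 FPKM in WT and 4.71, 3.57 and 4.45 FPKM in KO libraries (log2 fold change -0.24 ± 0.12 SE). *Psmg4*, its partner and the most abundant of the 4, was at 36.7, 40.2 and 37.7 FPKM in WT and 39.5, 34.0 and 40.0 FPKM in KO libraries, with groups that overlapped throughout (log2 fold change -0.02 ± 0.08 SE, and 0.02 under median-ratio scaling).

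The 3 chaperones of the base went different ways, 2 lower and 1 higher in KO cells with either scaling. *Psmd5* was at 25.7, 34.1 and 33.7 FPKM in WT and 26.9, 25.0 and 27.3 FPKM in KO libraries. WT replicates 2 and 3 were well above the other 4 libraries, the log2 fold change was -0.22 ± 0.12 SE, and without WT replicate 1 it was -0.35 (limma, adjusted *p* = 0.0288), the lowest adjusted *p* of any member. *Psmd9* was at 21.9, 22.6 and 22.1 FPKM in WT and 19.7, 20.1 and 22.2 FPKM in KO libraries, where only KO replicate 3 reached the WT values (log2 fold change -0.10 ± 0.07 SE). *Psmd10*, also called gankyrin, was the member with the largest positive value. It was at 28.5, 24.0 and 22.0 FPKM in WT and 26.8, 26.7 and 30.8 FPKM in KO libraries (log2 fold change 0.18 ± 0.11 SE), with WT replicate 1 again among the KO libraries.

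Among the alternative caps of the core, the activator subunits *Psme1* and *Psme2*, which form a ring known to be induced by interferon with the immunoproteasome, did not share a pattern. *Psme1* was at 218, 225 and 215 FPKM in WT and 195, 231 and 223 FPKM in KO libraries, with KO replicate 1 lowest and KO replicate 2 highest (log2 fold change -0.02 ± 0.08 SE, and 0.01 under median-ratio scaling). *Psme2* was at 166, 207 and 221 FPKM in WT and 154, 182 and 172 FPKM in KO libraries. WT replicate 1 lay within the KO range and the other WT libraries above it, with a log2 fold change of -0.22 ± 0.12 SE. These genes lie 5911 bases apart on chromosome 14.

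*Psme3*, the nuclear activator of the same family, was at 205, 227 and 227 FPKM in WT and 207, 194 and 184 FPKM in KO libraries. KO replicate 1 exceeded WT replicate 1 and the groups otherwise did not meet (log2 fold change -0.17 ± 0.07 SE, limma adjusted *p* = 0.626). *Psmf1*, an inhibitor of the core in vitro and the least abundant of the class, was at 16.5, 18.2 and 19.4 FPKM in WT and 15.9, 16.2 and 16.4 FPKM in KO libraries. Every KO library was below every WT library, with a log2 fold change of -0.15 ± 0.08 SE (limma, adjusted *p* = 0.626). Over the 5 genes of this class, 4 were lower in KO cells, or 3 under median-ratio scaling.

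The remaining 4 genes of the rule belong to none of these classes. *Psmc3ip*, which shares the name but is a cofactor of meiotic recombination and no proteasome subunit, was at 13.8, 18.6 and 17.4 FPKM in WT and 13.8, 12.6 and 14.8 FPKM in KO libraries (log2 fold change -0.25 ± 0.12 SE), the most negative value of the list. *Psme2b* is a copy of *Psme2* without introns, so reads may be shared between them, and its mean of 70.8 FPKM is uncertain. The core subunits of other tissues were close to absent. *Psma8*, known from testis, had 1, 8 and 0 reads in WT replicates 1 to 3 and 0 in all 3 KO libraries. *Psmb11*, known from thymic epithelium, had at most 5 reads in a library. Annotated *Psm* pseudogenes reached at most 0.183 FPKM.

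Cofactors and regulators that do not carry the *Psm* name were also mostly lower in KO cells. Of the 27 such genes analysed, 23 were lower and 4 higher in KO cells, or 18 and 9 under median-ratio scaling and 20 and 7 under quantile normalization, with a median log2 fold change of -0.08 (shares of 85.2% and 66.7% lower with the deposited and the median-ratio scaling, against 57.9% and 49.4% of all genes). With 6 libraries 0 were called (limma, adjusted *p* under 0.05), 3 had an unadjusted *p* under 0.05 (*Nfe2l1*, *Ubqln4* and *Mafg*, against 6.98% of all genes), and 5 had every KO library below every WT library, against 6.03% of all genes. *Nfe2l1*, which encodes the factor Nrf1 described above, was at 61.1, 84.2 and 80.9 FPKM in WT and 56.5, 57.7 and 57.0 FPKM in KO libraries. WT replicates 2 and 3 stood well above the rest and WT replicate 1 just above the KO libraries, which were nearly equal. The log2 fold change was -0.38 ± 0.12 SE (limma, adjusted *p* = 0.626), and -0.53 without WT replicate 1 (limma, adjusted *p* = 0.00623).

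*Mafg*, a small Maf protein that pairs with Nrf1 on DNA, was picked out after its values were seen. It was at 24.1, 31.3 and 33.0 FPKM in WT and 24.4, 22.1 and 22.5 FPKM in KO libraries, with a log2 fold change of -0.33 ± 0.12 SE and of -0.47 without WT replicate 1 (limma, adjusted *p* = 0.0174). Its WT replicate 1 lay inside the KO range. Other genes of the list linked to Nrf1 did not share this drop. *Ngly1* was higher in KO cells, at 0.18 ± 0.11 SE (limma, adjusted *p* = 0.633), the highest log2 fold change of the list. *Ddi2* and the related factor gene *Nfe2l2* were near 0, at -0.02 ± 0.07 SE and -0.04 ± 0.07 SE. Besides *Nfe2l1*, the genes of this list without overlap between groups differed less. *Ubqln4*, a shuttle that brings ubiquitin-tagged proteins to the proteasome, was at 46.2, 48.3 and 47.1 FPKM in WT and 43.9, 41.4 and 42.6 FPKM in KO libraries (log2 fold change -0.14 ± 0.06 SE). The ubiquitin receptor *Adrm1* was at 54.8, 59.6 and 58.6 FPKM in WT and 50.9, 54.2 and 51.0 FPKM in KO libraries (log2 fold change -0.15 ± 0.06 SE). For *Nsfl1c*, a cofactor of the unfoldase *Vcp*, the log2 fold change was -0.14 ± 0.06 SE. The 4 genes that encode ubiquitin were 3 lower and 1 higher with either scaling, at a median of -0.05, and 0 were called by limma or had an unadjusted *p* under 0.05.

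Genes that carry peptides from the proteasome to MHC class I, and the factors known to drive them with the immunoproteasome, showed no common direction. Of 13 genes, 7 were lower and 6 higher in KO cells, also under median-ratio scaling (8 and 5 under quantile normalization), at a median of -0.05, and 0 were called by limma, with 1 at an unadjusted *p* under 0.05 against 6.98% of all genes. The peptide transporter gene *Tap1*, which overlaps *Psmb9*, was at 128, 167 and 164 FPKM in WT and 125, 159.5 and 140.5 FPKM in KO libraries, with the lowest value of each group in replicate 1, as for *Psmb9*. *Irf2*, a factor that binds interferon response elements, was the only gene of this list without overlap between groups. It was at 44.5, 33.8 and 35.8 FPKM in WT and 44.6, 46.4 and 48.6 FPKM in KO libraries (log2 fold change 0.29 ± 0.11 SE, limma adjusted *p* = 0.626). WT replicate 1 lay just below the KO libraries, and without it the log2 fold change was 0.41 (limma, adjusted *p* = 0.0197). Without that library *Nlrc5* was also called lower and *Irf8* higher in KO cells (limma, adjusted *p* = 0.0139 and 0.0321).

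**Figure D5:**
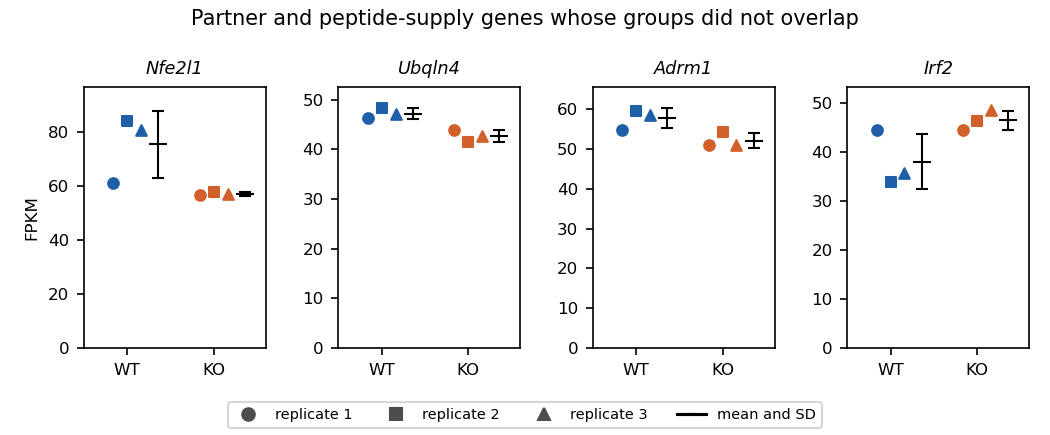
FPKM per library of 4 genes outside the *Psm* name whose WT and *Hif1a* KO libraries did not overlap, with WT in blue, KO in orange, marker shapes for replicate numbers and bars for mean and SD. For *Nfe2l1* and *Irf2*, WT replicate 1 (61.1 and 44.5 FPKM) sat next to the KO libraries and apart from the other WT libraries.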

How the data were processed

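Bulk RNA-seq of 3 WT and 3 *Hif1a* KO libraries was analyzed. The authors filtered the paired-end reads, used TopHat to align them to mm10 and HTSeq to count them per gene, and deposited FPKM values, 1 column per library. Annotation release, strand option, handling of multiply aligned reads and scaling between libraries are not given in the sources used here. Symbols came from GENCODE vM21 for 46488 of the 46983 gene IDs. Depth was recovered from the FPKM steps of 1 read, and all 25717 genes above 0 gave whole reads within a tolerance of 0.02. Errors given from reads cover counting error only, and 95% intervals come from limma and the spread between libraries.

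Genes whose FPKM averaged 0.5 or more (13312) entered a two-sided limma 3.58.1 test (R 4.3.3, lmFit and eBayes with trend) on log2(FPKM + 1), with no covariate and Benjamini-Hochberg adjustment over all of them. Fold changes on this scale understate low genes. Ratios of subunit pairs were compared by exact permutation test (scipy 1.17.1). The members and lists were chosen with earlier results of these data known, so counts over lists carry no test. Genes named were *Psmb5* to *Psmb10* and *Psme1* to *Psme3*, members without overlap between groups, the 5 largest log2 fold changes, members below the filter, the most and least abundant member of each class, and up to 5 genes without overlap from each other list. The called members and the members higher in KO cells or highest in WT replicate 1 were named after their values were seen. So were *Mafg*, *Ngly1*, *Ddi2*, *Nfe2l2*, *Tap1*, *Nlrc5*, *Irf8* and the individual cell type markers. *Paaf1* was not analysed here, and the values of a few list genes are left out of the text.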

Additional observations from a re-analysis of the deposited data

How the results depend on the processing

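The alternatives were a pseudocount of 0.1, every gene above 0, a filter at a mean FPKM of 5, quantile normalization, median-ratio scaling, immunoglobulin genes removed, eBayes without trend, limma-voom on the recovered reads, the longest transcript as length, the replicate number as a block and each library left out in turn. The count of members called was 0 under each of those that refit the genes except without WT replicate 1. Leaving out 1 library gave 0 to 1251 genes called over all genes (1 without KO replicate 1), 0 to 7 members called, and 3 to 35 members whose groups did not overlap (9 without KO replicate 1 and 11 without KO replicate 3, against 20.1% and 19.2% of all genes). It moved the member median between -0.145 (without WT replicate 1) and -0.057 (without WT replicate 2), the log2 difference of the *Psmb10* to *Psmb7* ratio between 0.043 and 0.201 and that of the *Psmb9* to *Psmb6* ratio between -0.030 and 0.081, and the log2 fold changes of *Psmb10* between -0.051 and 0.104, *Psme1* between -0.072 and 0.047, *Psmd14* between -0.023 and 0.008 and *Psmg4* between -0.057 and 0.057. Under median-ratio scaling the median of the lid was -0.033, and *Psme1*, *Psmc3*, *Psmd14* and *Psmg4* changed sign, to 0.011, 0.001, 0.024 and 0.018. The cause was not tested. With 2 libraries left in a group, limma pools the spread over both groups. The labels do not say whether the replicate numbers pair the samples. Deviations of same-numbered libraries from their group means correlated at -0.10, 0.14 and -0.28, which cannot settle it with 3 libraries in each group. The fit with the replicate block called 0 genes and 0 members, with a member median of -0.10. Members at low FPKM such as *Psmg3* rest on few reads.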
